A study of Mus musculus with 5 samples.

Results

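The MHC class I antigen presentation genes described here are B2m, the heavy chains H2-K1, H2-D1 and H2-T23, the bridging factor Tapbp, and the peptide transporter subunits Tap1 and Tap2. They were taken by name, 7 of 20365 gene names in the tables, with 1 interval per gene, the one with the highest mean CPM (read counts scaled to library size) in the labeled libraries. Cardiac fibroblasts (CF) came from hearts of healthy adult male C57Bl/6J wildtype mice, were isolated with collagenase and were grown to confluency. In the labeled group (3 libraries), 0.1 mM of the uridine analog 4-thiouridine (S4U) was present for 12 h, and in the unlabeled group (2 libraries) the same 12 h passed without it, with every other condition shared. SLAMseq (thiol-linked alkylation for metabolic sequencing of RNA) reads S4U in new transcripts as T>C conversions, and with 1 interval per gene the libraries held 506045 to 1843033 reads each. The study's methods describe the SLAMseq replicates as separate CF preparations and the controls as incubated in parallel, but no source says which control belongs to which preparation. The isolation protocol, written for operated hearts, removes CD31+ endothelial and CD45+ immune cells with magnetic beads. The study's methods refer to this protocol for healthy hearts in other assays. The SLAMseq section itself does not say whether this depletion was done.

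MHC class I molecules display peptides from inside the cell on its surface, where CD8 T cells and natural killer cells read them. A heavy chain folds with beta-2-microglobulin in the endoplasmic reticulum, the TAP transporter pumps in peptides made by the proteasome, and tapasin holds the empty class I molecule at TAP until a peptide fits. Most nucleated cells carry class I, fibroblasts included, and interferons raise transcription of many of its genes through shared promoter elements.

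Promoter sequence is shown first because class I genes are known for these shared elements. Of the 7 genes, 6 had an entry in the RefSeq promoter table (GRCm38.p6, 250 bases before to 50 after each start), and the windows below were located in GRCm39. Capitals mark TGGGGATTCCCCA, the longest inverted repeat with 1 free central base in the H2-K1 promoter, which holds the NF-kB site known from the class I enhancer, and AANNGAAA, the core bound by interferon regulatory factors, both searched on either strand. The motifs and windows were chosen after the promoters had been read and other forms of these motifs had been searched, so they describe the sequences and carry no test.
H2-K1, chr17:34219404-34219433, minus strand, beginning 112 bases upstream of the RefSeq start: TGGGGATTCCCCAtctccacagTTTCACTT
H2-D1, chr17:35481898-35481927, plus strand, beginning 172 bases upstream: TGGGGATTCCCCAtctcctcagTTTCACTT
B2m, chr2:121978023-121978052, plus strand, beginning 145 bases upstream: gaacatgaAACTGAAAatgggaaagtccct

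The H2-K1 and H2-D1 windows were identical at 29 of 30 bases, the difference being A19T (counted from 1 at the 5′ end, H2-K1 base first). The inverted repeat stood in 4 of 32851 RefSeq promoters (0.0122%), those of 3 genes, H2-K1 and H2-D1 among them and no other member with an entry. AANNGAAA was far more frequent, at 23.9% of promoters, and stood in B2m, H2-K1, H2-D1 and H2-T23. Another element, TGACG, the core of cyclic AMP response elements, stood in 20.8% of promoters and in B2m, H2-K1, H2-D1 and Tap1. None of the 3 was found in the promoter window of Tapbp, which says only that these letters are not there.

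B2m encodes the light chain that every classical class I molecule needs. Its interval was chr2:121983132-121983563 on the plus strand (GRCm39), within the last exon, exon 4 of 4, in the 3′ UTR, with Patl2 annotated on the other strand. B2m had 2783, 2340 and 1024 reads in labeled libraries 1 to 3 and 3155 and 2203 in unlabeled libraries 1 and 2. Because the authors' CPM divides by a number 7.58 to 28.9 times the reads counted here, levels are given as CPM relative to counted reads, which were 1766, 1958 and 2024 labeled and 1712 and 2212 unlabeled. B2m stood at the 99.7th percentile of 9807 genes with enough reads for a test, the highest of the members in each library. The labeled libraries lay inside the range of the unlabeled ones.

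The heavy chains H2-K1 and H2-D1 present the peptides. H2-K1 was read at chr17:34214986-34215700 on the minus strand, 715 bases that span exons 7 and 8 of 8 and the intron between them. Of these, 422 bases are 3′ UTR of the canonical transcript, and the interval runs somewhat past its end. H2-D1 was read at chr17:35485847-35486473 on the plus strand, in exon 8 of 8, all of it 3′ UTR. The level of H2-K1 was 579, 543 and 605 CPM relative to counted reads in the labeled libraries and 487 and 597 in the unlabeled ones. H2-D1 was lower in each library, at 202, 231 and 217 labeled and 201 and 230 unlabeled. Per library, H2-K1 reads were 2.35 to 2.86 times those of H2-D1, and B2m reads were 2.26 to 2.67 times those of both heavy chains together. Reads come from the 3′ end of each transcript, so counts are not divided by length. Exact 31-base windows that also occur elsewhere in GRCm39 made up 14.2% of the H2-K1 interval and 30.3% of the H2-D1 interval, and 92 of the 97 such windows of H2-K1 occur in H2-D1. How the authors' mapping placed such reads was not tested, so the split between the heavy chains is uncertain.

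H2-T23 encodes Qa-1, a nonclassical class I molecule that engages inhibitory receptors on natural killer cells. At chr17:36340869-36341079 on the minus strand (exon 7 of 7, 3′ UTR, A930015D03Rik on the other strand) it had 1, 3 and 1 reads in the labeled libraries and 0 and 2 in the unlabeled ones. It was near zero in both groups, too low for a test of reads or of conversions. No conversion was seen over 5 to 33 covered T positions in the labeled libraries, which allows rates of up to 0.600 in labeled library 3. In this interval 96.7% of the 31-base windows occur elsewhere in the genome, the deposited multi-mapping count was 0 in every row, and a coding transcript of the gene ends 640 bases past it. Their part in the low count was not tested, so low counts here do not show a low transcript. The nonclassical and Q-region relatives with the same kind of interval, H2-Q6 and H2-Q7 (100% of windows found elsewhere), had 0 reads.

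Tapbp encodes tapasin, which bridges class I to the transporter. At chr17:34147126-34148264 on the plus strand (exon 8 of 8, 3′ UTR, Gm64688 on the other strand) its level was 46.3, 179 and 217 CPM relative to counted reads in labeled libraries 1 to 3 and 55.9 and 229 in unlabeled libraries 1 and 2. Both libraries numbered 1 were low, and the groups overlapped. Exact 31-base windows found elsewhere made up 11.1% of the interval.

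Tap1 and Tap2 encode the subunits of the transporter. Tap1 at chr17:34415749-34416199 (plus strand, exon 11 of 11, 3′ UTR) had levels of 114, 36.0 and 61.3 labeled and 73.2 and 19.1 unlabeled. Tap2 at chr17:34435068-34435295 (plus strand, exon 12 of 12, 3′ UTR, which runs 534 bases further) had 110, 25.9 and 79.0 labeled and 124 and 45.2 unlabeled. For both genes the libraries numbered 1 were the highest of their group, opposite to Tapbp, and the groups overlapped. No 31-base window of either interval, nor of B2m, occurs elsewhere. The ratio of Tap1 to Tap2 reads was 0.775 to 1.39 in the labeled libraries and 0.422 to 0.590 in the unlabeled ones, a difference that was not tested. The ratio of unlabeled library 2 rests on 19 Tap1 reads. Both unlabeled libraries lay below every labeled one, as did the levels of 10.4% of 9807 single genes. An exact one-sided permutation test of 3 against 2 libraries cannot give a p below 0.1.

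**Figure D1:**
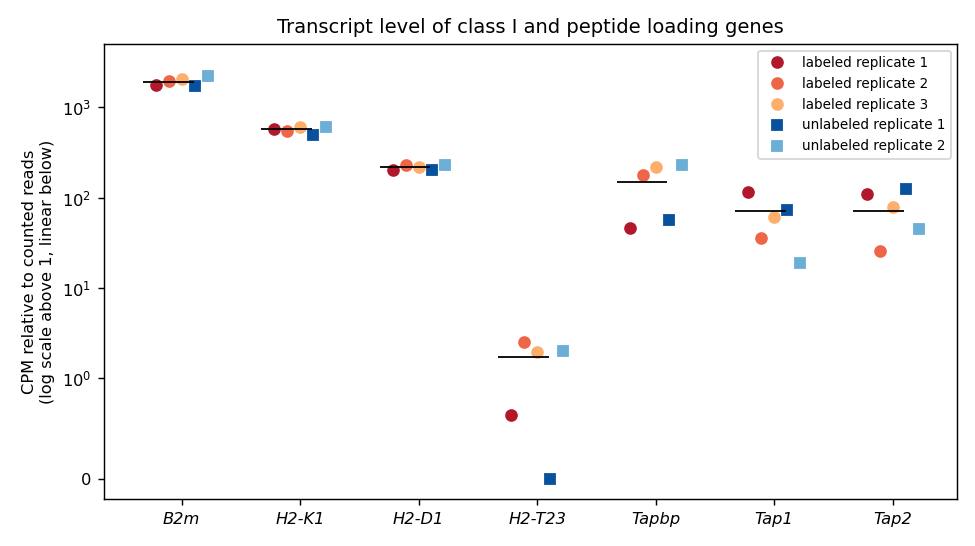
Level of each member by library, as CPM relative to counted reads on a log axis that is linear below 1 (circles labeled, squares unlabeled, horizontal lines the mean of the 3 labeled libraries). B2m, H2-K1 and H2-D1 form 3 tight steps, Tapbp, Tap1 and Tap2 spread widely with the libraries numbered 1 at one end, and H2-T23 lies near 0.

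Ordered by mean labeled level, B2m (1916 ± 134, SD, n = 3), H2-K1 (576 ± 30.9) and H2-D1 (217 ± 14.3) differed from one another by more than the larger SD. H2-D1, Tapbp (148 ± 89.8), Tap2 (71.8 ± 42.7) and Tap1 (70.5 ± 39.9) did not differ from their neighbours beyond that spread. H2-T23 (1.71 ± 0.967) lay below Tap1 by more than the spread.

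The libraries numbered 1 and 2 were set side by side within each group. Tap1 was 3.17-fold higher in labeled library 1 than in labeled library 2 and 3.84-fold higher in unlabeled library 1 than in unlabeled library 2. For Tap2 the ratios were 4.26 and 2.75, and for Tapbp 0.259 and 0.244. Among 9807 genes these ratios ranked Tap1 at percentiles 98.3 and 98.8, Tap2 at 99.5 and 96.5, and Tapbp at 3.30 and 1.99. B2m, H2-K1 and H2-D1 had ratios of 0.774 to 1.07 and stood between the 27.2th and the 50.2th percentile. The transporter and tapasin genes thus stood near the ends of the distribution in the same direction with and without S4U, and the chains nearer to its middle. Among the other pathway genes, H2-Q4, H2-T22, Tapbpl (a tapasin relative) and Psmb10 (an immunoproteasome subunit) also stood above the 97th percentile in both groups, and Psme1, a proteasome activator subunit, stood at 5.45 and 2.80.

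S4U incorporation is read from the T>C conversion rate, the conversions per covered T position. Across all intervals it was 0.0353 to 0.0358 in the labeled libraries and 0.000652 to 0.00111 in the unlabeled ones. Of the 7 members, 6 could be tested and 6 had a higher rate in the labeled libraries (beta-binomial likelihood-ratio test, unadjusted p below 0.05), against a background of 94.6% of 19240 intervals, so a raised rate is what nearly every interval showed. The size of the rate separated them. B2m, H2-K1, H2-D1 and Tapbp had low rates, and Tap1 and Tap2 had rates close to those of most genes.

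In B2m the rate was 0.0135, 0.0123 and 0.0113 in the labeled libraries and 0.000430 and 0.000214 in the unlabeled ones (p = 6.27e-07, beta-binomial test). H2-K1 had 0.0138, 0.0158 and 0.0122 labeled and 0.000830 and 0.000444 unlabeled (p = 3.33e-06, beta-binomial test). H2-D1 had 0.00858, 0.00937 and 0.00930 labeled and 0.000206 and 0.000181 unlabeled (p = 2.34e-06, beta-binomial test). Every labeled library lay above both unlabeled ones for these chains, as for 90.4% of 11179 genes. Depth was uneven, with 23315 to 54536 covered T positions in labeled libraries for B2m and 2689 to 8388 for H2-D1.

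In Tapbp the rate was 0.00950, 0.00545 and 0.00764 labeled, from 9, 24 and 16 conversions, and no conversion was seen in 1494 and 4848 covered T positions unlabeled, which allows up to 0.00201 and 0.000619 (p = 7.77e-05, beta-binomial test). The exact (Clopper-Pearson) 95% intervals of the 3 labeled rates overlapped. Tapbp was low in rate both in the library where its level was lowest and in those where it was highest.

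Tap1 had rates of 0.0439, 0.0313 and 0.0419 labeled and 0.00315 and 0 unlabeled (p = 4.29e-05, beta-binomial test), the last from 380 covered T positions, which allow up to 0.00789. Tap2 had 0.0458, 0.0424 and 0.0402 labeled and 0.00204 and 0.00171 unlabeled (p = 1.38e-06, beta-binomial test). These were the highest rates of the 6 members in each labeled library. They rest on 549 to 4235 covered T positions per labeled library, fewer than for the chains.

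**Figure D2:**
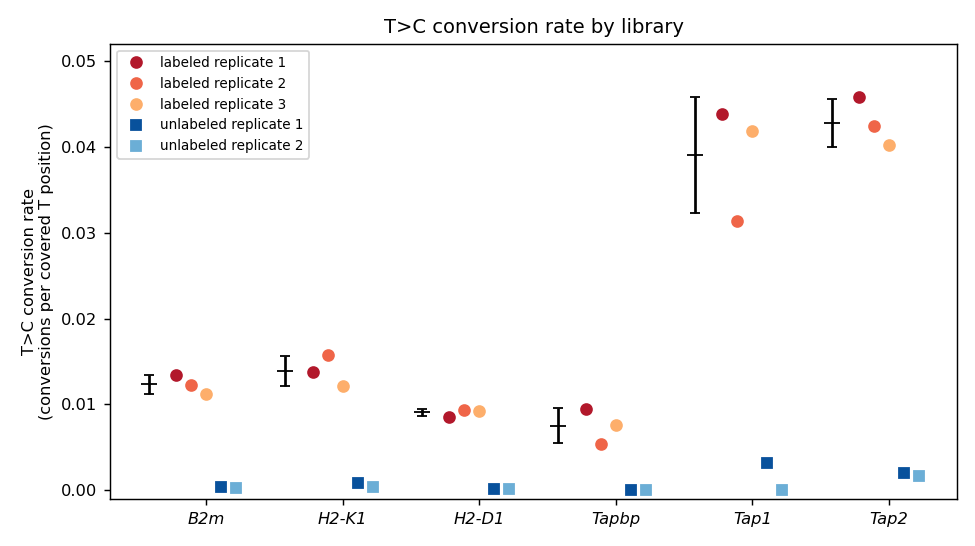
T>C conversion rate of the 6 members with a tested rate, by library (circles labeled, squares unlabeled, black bars the mean ± SD of the 3 labeled libraries). B2m, H2-K1, H2-D1 and Tapbp lie between 0.00545 and 0.0158 in the labeled libraries, Tap1 and Tap2 between 0.0313 and 0.0458, and the unlabeled libraries at or below 0.00315.

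Ranks were taken among 8402 genes covered at 100 or more T positions by each labeled library, a minimum set after the values were seen. Over these genes the median rate was 0.0384 with quartiles of 0.0336 and 0.0425. Tapbp (0.00753 ± 0.00203, SD, n = 3) stood at percentile 0.583, H2-D1 (0.00908 ± 0.000433) at 0.928, B2m (0.0123 ± 0.00110) at 1.73 and H2-K1 (0.0139 ± 0.00178) at 1.99. Tap1 (0.0390 ± 0.00673) stood at 54.2 and Tap2 (0.0428 ± 0.00281) at 76.5. The median over the 6 members was 0.0131. B2m, H2-K1, H2-D1 and Tapbp thus lay in the lowest 2% of genes and the transporter subunits in the middle and upper part of the distribution. H2-T23 could not be ranked.

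**Figure D3:**
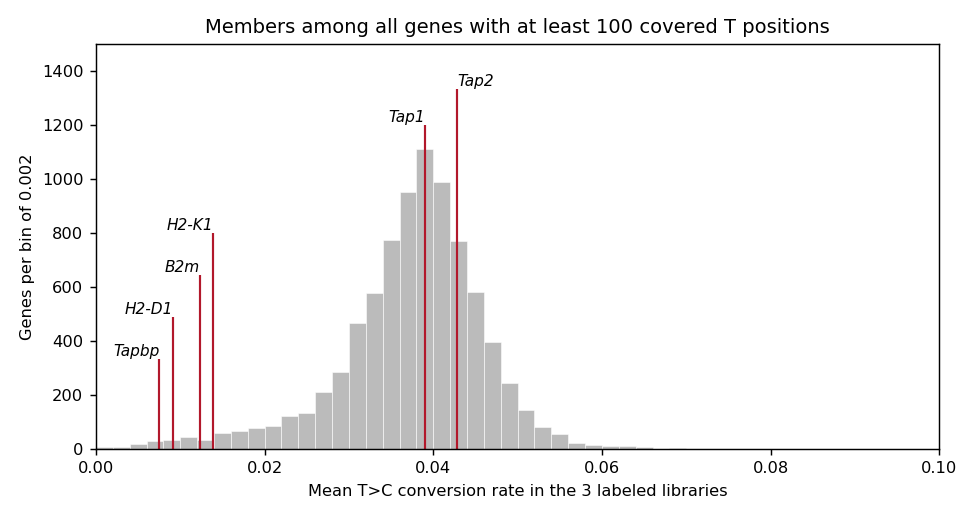
Number of genes by mean T>C conversion rate of the 3 labeled libraries (grey bars, bins of 0.002, 8402 genes), with the mean rates of the 6 members as red lines whose heights carry no value. Tapbp, H2-D1, B2m and H2-K1 lie in the low tail, and Tap1 and Tap2 in the bulk around the median of 0.0384.

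The mean rate of Tap1 and Tap2 exceeded that of the other 4 members by 0.0302 ± 0.00371 (SD over 3 libraries), a ratio of 3.82 ± 0.329, and in 3 of 3 labeled libraries the lower TAP rate was above the highest of the others. The split was made after the rates were seen and is a description, and an exact paired permutation test over 3 libraries cannot give a two-sided p below 0.25. Within the order, Tap2 and Tap1 did not differ beyond the larger SD, nor did H2-K1 and B2m or H2-D1 and Tapbp. Tap1 and H2-K1, and B2m and H2-D1, did.

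The share of reads with at least 1 conversion gave the same division. It was 17.0% to 18.6% for B2m, 22.8% to 27.0% for H2-K1, 11.8% to 15.7% for H2-D1 and 9.35% to 10.9% for Tapbp in the labeled libraries. For Tap1 it was 51.2% to 58.1% and for Tap2 58.1% to 66.7%. In the unlabeled libraries it reached 6.67% (Tap1, unlabeled library 1). B2m had 139 converted reads but 28 conversions in unlabeled library 1, and 61 against 11 in unlabeled library 2, so for this gene the deposited columns do not count the same events.

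Labeled and unlabeled libraries were compared for reads to see whether S4U itself moved the genes. No member was called, and 0 of 9807 genes were called in either direction (0% higher and 0% lower, edgeR quasi-likelihood test, adjusted p below 0.05), with 279 genes higher (2.84%) and 305 lower (3.11%) by the unadjusted p at the same threshold. DESeq2 called 13 genes higher (0.133%) and 6 lower (0.0612%) after adjustment, no member among them. In simulated data edgeR recovered 76 of 200 genes with a log2 change of 2, so a gene not called may still have changed. The log2 difference of labeled against unlabeled was 0.04 (SE 0.26) for B2m, 0.16 (0.25) for H2-K1 and 0.08 (0.24) for H2-D1. It was 0.11 (0.78) for Tapbp, 0.69 (0.64) for Tap1 and −0.16 (0.63) for Tap2, each of the 6 with an adjusted p of 1.00 in edgeR. The median was 0.10 over the 6 members and 0.02 over all genes tested. Groups overlapped for all 6 tested members, while every labeled library was above both unlabeled ones in 10.4% of genes and below them in 11.1%.

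Standard errors in the main edgeR fit were 0.63 to 0.78 for Tapbp, Tap1 and Tap2, against 0.24 to 0.26 for the chains. With the replicate number as a block they were 0.18 for Tapbp, 0.22 for Tap1 and 0.20 for Tap2. For the chains they were then 0.15 to 0.16, so most of the gap in the main fit went with the library numbers. Between libraries with the same number, labeled less unlabeled, Tap1 was 0.63 and 0.88 on the log2 scale, Tap2 −0.17 and −0.78, and Tapbp −0.27 and −0.35. Leaving out both libraries numbered 1, an alternative chosen after the values were seen that leaves 1 unlabeled library whose spread is taken from the labeled ones, gave Tap1 a log2 difference of 1.29 (adjusted p = 0.0399, edgeR), and 371 of 9620 genes were then called, 166 higher (1.73%) and 205 lower (2.13%). With the replicate number as a block, 5.38% of genes were called higher and 6.3% lower, and Tap1 was the 1 member called.

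**Figure D4:**
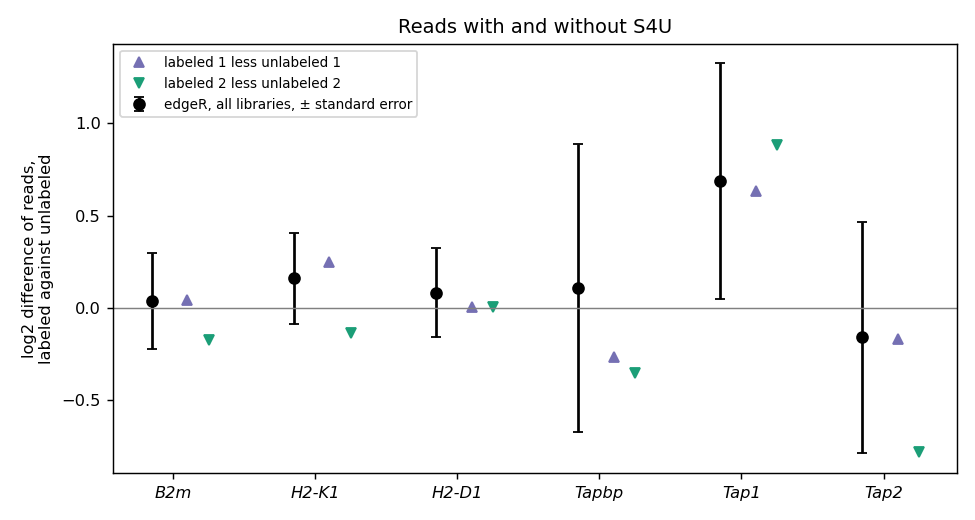
Log2 difference of reads, labeled against unlabeled, for the 6 members that were tested (black points edgeR with all 5 libraries, bars ± standard error, triangles the difference between libraries of the same number). Bars of Tapbp, Tap1 and Tap2 are wide, those of B2m, H2-K1 and H2-D1 narrow, and the values for Tap1 all lie above 0.

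The rest of the class I pathway was read from a list of 48 genes, of which 47 were in the tables. No gene of the 30 tested for reads was called (edgeR), and at an unadjusted p below 0.05 Erap1 and Irf1 were lower, 2 of 30 beside the background of 3.11%. Erap1, which trims peptides in the endoplasmic reticulum, was at 50.1, 28.5 and 19.8 CPM relative to counted reads labeled and 84.1 and 71.3 unlabeled (log2 difference −1.13, SE 0.39). Irf1, an interferon-induced activator of class I transcription, was at 64.1, 44.4 and 43.5 labeled and 105.8 and 91.4 unlabeled (log2 difference −0.87, SE 0.28). For both genes all 3 labeled libraries lay below both unlabeled ones, as in 11.1% of genes, and neither passed the adjustment over all genes. With the replicate block both were called lower, Erap1 at −0.91 (adjusted p = 0.000746, edgeR) and Irf1 at −0.80 (adjusted p = 0.00167, edgeR), as were Psme1 at −0.84 and Jak1 at −0.46, 4 of 30 beside the 6.3% of all genes called lower in that fit.

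By role, median rates were lower in the other heavy chains and in the loading chaperones and trimming factors than in the signaling genes, given here as a description. These lists hold no member, so Tap1 and Tap2 are not in them. Among 34 genes with a test of conversion, 32 had a raised rate, beside the 94.6% background. Of the loading chaperones and trimming factors, 5 of 5 had a rate that could be ranked and their median was 0.0228, from Erap1 at 0.0118 ± 0.00309 (SD, n = 3) and Pdia3, the disulfide isomerase of the loading complex, at 0.0170 ± 0.000823, to Canx, the chaperone that receives new heavy chains, at 0.0273 ± 0.00210. Other class I and class I-like heavy chains had a median of 0.0224 over 5 genes, which is the value of H2-Q4, with 68.5% of its 31-base windows found elsewhere in the genome (46.5% for H2-T22), so reads of both are uncertain. The lowest was Fcgrt, the heavy chain of the neonatal Fc receptor and another partner of B2m, at 0.0144 ± 0.00117. The immunoproteasome and its PA28 activator had a median of 0.0358 over 3 genes, with Psmb8, a catalytic subunit, at 0.0486 ± 0.00783. Regulators of class I transcription had a median of 0.0370 over 9 genes, and interferon receptors and kinases a median of 0.0427 over 7, where Ifnar2 at 0.0174 ± 0.000588 was the lowest. Tap1 and Tap2 thus had rates near those of regulators and receptors, and near the median of 0.0384 over all ranked genes. Tapasin, B2m, H2-K1 and H2-D1 had rates below that of Pdia3. They were not alone there, since Erap1 lay below B2m and H2-K1, and Fcgrt was close to H2-K1.

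**Figure D5:**
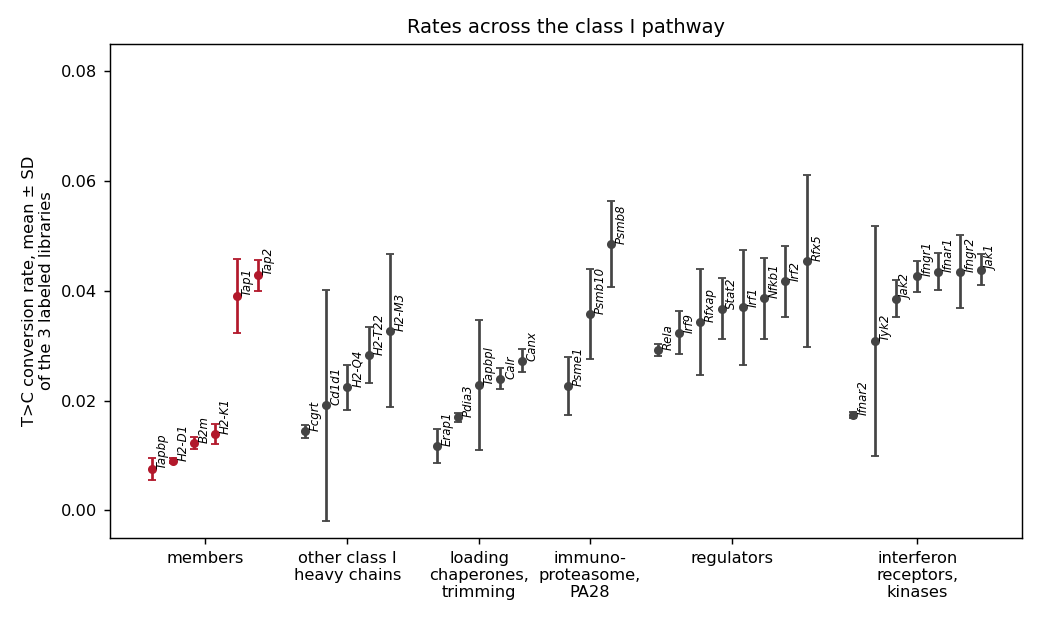
T>C conversion rate (mean ± SD of the 3 labeled libraries) of the 6 members (red) and of the pathway genes that could be ranked and are reported here (dark grey), by role and sorted within each role. The median is 0.0224 in the other heavy chains, 0.0228 in loading and trimming and 0.0427 in the interferon receptors and kinases.

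Class II genes, which present peptides taken up from outside the cell, had 1 to 19 reads in total over the 5 libraries in each of 7 genes. Nlrc5, the transactivator of class I genes, had 7 reads in total, and Psmb9 had 24. At this depth their levels were not measurable.

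Most like the mean profile of the 6 members over the 5 libraries were Tada1, Usp19, Bmp2k, Dnajb11 and Pml, at a root-mean-square distance of 0.0490 to 0.0573 on the log2 scale among 4614 genes. The members themselves lay 0.151 (H2-K1) to 1.01 (Tapbp) from their own mean, and the share of other genes nearer to it was 4.64% for H2-K1, 13.5% for H2-D1, 14.7% for B2m, 93.0% for Tap2, 94.5% for Tap1 and 98.5% for Tapbp. The mean profile thus lay near the chains and far from the other members, with Tapbp and the TAP genes on opposite sides of it in the libraries numbered 1 and 2.

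Markers of the labeled cell type and of others that could be present were read alongside. Summed over 10 fibroblast markers, the level was 41860 to 45415 CPM relative to counted reads labeled and 34215 to 37249 unlabeled, with no gene called by edgeR. Col1a1 and Col1a2 make up much of these sums, and Pdgfra lay the other way, at 516 to 525 labeled and 722 and 841 unlabeled. Summed leukocyte markers, from cells that also carry class I, were 52.7 to 97.1 labeled and 51.5 to 96.4 unlabeled, with 8 of 10 detected and Cd3e and Cd79a at 0. Endothelial markers summed to 118 to 209 labeled and 169 to 231 unlabeled (7 of 7 detected), mural markers to 21.6 to 73.1 and 30.4 to 86.3 (5 of 5), and cardiomyocyte markers to 1.90 to 7.53 and 2.17 to 9.03 (6 of 7, Ryr2 at 0). All 4 of these summed levels were lower in the libraries numbered 1 than in those numbered 2, in both groups. Leukocyte markers were at 52.7 and 51.5 against 97.1 and 96.4, with labeled library 3 at 59.3. Endothelial markers were at 118 and 169 against 209 and 231, mural markers at 21.6 and 30.4 against 48.5 and 86.3, and cardiomyocyte markers at 1.90 and 2.17 against 7.53 and 9.03. The cardiomyocyte sums rest on very few reads, with at most 6 reads of a gene in a library (Tnnt2), too few to compare libraries. The lists did not move as one, since without Notch3, which held most of the mural reads, the mural sum was higher in the libraries numbered 1, at 10.2 and 7.05 against 5.86 and 4.02. The most read genes of the leukocyte, endothelial and cardiomyocyte lists were Cd68, Cdh5 and Tnnt2. Without them these sums were still lower in the libraries numbered 1. For Cd68 and Cdh5 this decides little. Both were close in labeled libraries 1 and 2, and higher in unlabeled library 1 than in unlabeled library 2. Among leukocyte markers the gap was widest in Lyz2, at 2.54 and 3.26 against 27.6 and 30.1. Fcgr1 went the other way in both groups, Adgre1 in the labeled pair, and Cd68 and Cd14 in the unlabeled pair. The part of such cells in the levels of the members was not tested. In such bulk samples, fewer cells of a type and less RNA per cell cannot be told apart.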

How the data were processed

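SLAMseq libraries of mouse CF were analysed, 3 with S4U and 2 without, grouped by the labels. The authors prepared 3′ end libraries with molecular identifiers, mapped them to mm39 with SLAM-DUNK (slamdunk 0.4.3 in the file headers), removed duplicates and deposited counts of reads, converted reads, covered T positions and conversions per 3′ UTR interval. The deposited conversion rate is a fraction, conversions per covered T position. The deposited CPM divides reads by a larger total than the reads counted, so CPM relative to counted reads was computed here. The source of the intervals is not given in the sources used here. Repeated rows were used once, and the T content of 7 of 7 member intervals matched GRCm39.

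Rates were compared with a two-sided beta-binomial likelihood-ratio test (1 shared overdispersion, chi-square with 1 degree of freedom) on intervals with at least 1 covered T position in every library. For reads on 1 interval per gene (ties went to the longer interval), the quasi-likelihood test of edgeR was run on the counts after TMM scaling and filterByExpr, with p-values adjusted by Benjamini and Hochberg over all genes tested. A pseudocount of 1 was used for log2 levels. Alternatives were DESeq2, limma on log odds, other normalizations, filters, minimums and intervals, the replicate number as a block, and leaving out each library. The tests were tried on simulated data, where the beta-binomial test called slightly more unchanged intervals than its nominal share. Of 200 genes simulated with a log2 change of 2, edgeR recovered 76, with 3 false calls. DESeq2 recovered 120, with 15 false calls. The fit with the replicate block recovered 0, on counts simulated without differences between replicate numbers. Where no conversion was seen, the limit is 3 conversions, and limits and intervals cover counting error only.

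The genes named were the 7 members, a list of 48 pathway genes, and the 5 genes nearest to the members' mean profile among those with at least 20 reads in each library. Values of 1 gene of the pathway list are not reported here, though it is part of the counts and medians over the list. Members and lists were chosen with earlier results of these data known. Software was DESeq2 1.42.0, edgeR 4.0.16 and limma 3.58.1 under R 4.3.3, and numba 0.67.0, scipy 1.17.1, pandas 2.3.3, numpy 2.4.6 and matplotlib 3.10.9 under Python 3.11.15.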

Additional observations from a re-analysis of the deposited data

How the results depend on the processing

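A raised T>C rate was found for 6 of 6 members with adjusted p-values, with limma on the log odds, and without each library in turn (6 to 6). At a minimum of 1000 covered T positions in every library only 3 members (B2m, H2-K1 and H2-D1) and 3156 intervals could be tested, of which 3 and 3154 were raised, and without each library in turn 17025 to 18047 intervals were. No member and 0 genes had changed reads without any single library. DESeq2 called 19 genes (13 higher, 6 lower) and no member. With the replicate block 1146 genes were called, 528 higher and 618 lower, and 4 of 30 pathway genes and 1 member, Tap1, at a log2 difference of 0.78 (adjusted p = 0.00582, edgeR). That fit has 1 residual degree of freedom and holds labeled library 3 alone in its block. Deviations from the group mean correlated at 0.778 between the libraries numbered 1 and 0.628 between those numbered 2, and those of labeled library 3 at −0.472 with unlabeled 1 and 0.472 with unlabeled 2. Deviations of 2 unlabeled libraries from their mean are exact opposites, so these values are not independent, and with 2 pairs the numbers were taken as names. Leaving out both libraries numbered 1, chosen after seeing the data, called 371 genes and 1 member (Tap1). The sign of small read differences changed with the settings. With the block they were −0.013 for B2m and −0.28 for Tapbp, and without both libraries numbered 1 they were −0.11 for B2m, −0.018 for H2-K1, −0.18 for Tapbp and 0.060 for Tap2. Without each library in turn they ranged from −0.18 to 0.29 for B2m, −0.025 to 0.36 for H2-K1, −0.056 to 0.23 for H2-D1, −0.61 to 1.52 for Tapbp, 0.064 to 1.91 for Tap1 and −0.68 to 0.69 for Tap2. The cause of these changes was not tested. Depth limits H2-T23, with 5 to 33 covered T positions in labeled libraries, and Tap1, with 19 reads and 380 covered T positions in unlabeled library 2.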
